A study of Mus musculus with 6 samples.

Results

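The 38 genes described here encode junction, surface, receptor and transcription factor proteins of endothelial cells, together with the receptors through which vessels answer angiogenic signals. They were taken by gene symbol, and each has 1 row among the 24421 rows of a matrix of expression in cells sorted from the murine aorta. The cells came from 129S6/SvEv mice at 8 weeks of age that carried a conditional *CAG-Sun1/sfGFP* tracer allele, a nuclear GFP that Cre recombination switches on, with either *Mef2cSHF* (secondary heart field, SHF) or *Wnt1-Cre2* (cardiac neural crest, CNC). Aortic root and ascending aorta were digested, living GFP-positive cells were sorted, and RNA was amplified by the SmartSeq2 protocol into 3 SHF and 3 CNC libraries of unmanipulated mice. The 2 lineages therefore share age, strain, tracer and dissection and differ in the Cre driver, which marks descent and not cell type. The study calls the sorted cells VSMCs (vascular smooth muscle cells) and its libraries biological replicates, and whether each came from 1 mouse is not given in the sources used here. Expression is in TPM, a length-normalised unit of transcript abundance that corrects for gene length and sums to the same total in every library, so that levels of different genes can be compared but the sequencing depth is unknown.

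Endothelial cells line vessels as a single sheet. They are held together by VE-cadherin (*Cdh5*) and claudin-5 (*Cldn5*), and they sense VEGF, angiopoietins, BMP9 and BMP10, adrenomedullin and apelin through receptors that many other cells make little of. ETS factors (*Erg*, *Fli1*, *Ets1*) and SoxF factors (*Sox7*, *Sox17*, *Sox18*) drive many of these genes. Secondary heart field progenitors are known to give rise to endothelial and endocardial cells as well as to smooth muscle, whereas neural crest is known as a source of smooth muscle of the ascending aorta and arch and not of its endothelium. Some of the genes are not limited to endothelium. Endoglin (*Eng*), *Ramp2*, *Vcam1* and *Ets1* are also made by mesenchymal cells, and *Lyve1*, *Fli1*, *Tal1* and *Pecam1* by cells of the blood or by macrophages.

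RefSeq start sites on GRCm38.p6 were at hand for 16 of the 38 genes. The bases upstream of the start are shown for *Emcn*, which was above 5 TPM in every SHF library and listed at 0 in every CNC library, for the VEGF and angiopoietin receptor genes with a long enough stretch before the first annotated exon, and for *Cldn5*, which was added after its values were seen. They are given 5′ to 3′ on the strand of the gene, and capitals mark matches to the ETS-type motifs CAGGAA and CCGGAA and the Sox-type motif AACAAT on either strand. *Emcn* is at chr3:137340828-137341066 (+ strand), *Cldn5* at chr16:18776597-18776846 (+ strand), *Kdr* at chr5:75978459-75978705 (- strand), *Flt1* at chr5:147726012-147726261 (- strand) and *Tek* at chr4:94739039-94739288 (+ strand).
Emcn: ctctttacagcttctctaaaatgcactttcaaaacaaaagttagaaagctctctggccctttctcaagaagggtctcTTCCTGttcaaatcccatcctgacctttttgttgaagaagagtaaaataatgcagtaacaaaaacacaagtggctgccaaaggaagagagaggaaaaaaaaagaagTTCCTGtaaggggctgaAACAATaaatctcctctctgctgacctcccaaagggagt
Cldn5: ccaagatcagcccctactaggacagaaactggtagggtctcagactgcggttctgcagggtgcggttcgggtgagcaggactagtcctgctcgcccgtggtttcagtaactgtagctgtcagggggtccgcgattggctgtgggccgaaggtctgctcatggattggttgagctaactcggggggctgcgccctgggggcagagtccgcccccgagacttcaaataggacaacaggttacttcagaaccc
Kdr: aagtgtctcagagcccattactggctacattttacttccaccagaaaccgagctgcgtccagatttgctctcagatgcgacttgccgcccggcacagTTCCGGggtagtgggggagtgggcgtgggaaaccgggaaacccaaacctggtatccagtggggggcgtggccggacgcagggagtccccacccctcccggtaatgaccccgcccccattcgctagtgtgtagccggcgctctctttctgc
Flt1: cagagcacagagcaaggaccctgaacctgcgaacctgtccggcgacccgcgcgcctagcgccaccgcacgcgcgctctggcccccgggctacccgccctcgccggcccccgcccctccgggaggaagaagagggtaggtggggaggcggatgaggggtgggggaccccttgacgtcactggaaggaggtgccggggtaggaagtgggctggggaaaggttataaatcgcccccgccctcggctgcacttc
Tek: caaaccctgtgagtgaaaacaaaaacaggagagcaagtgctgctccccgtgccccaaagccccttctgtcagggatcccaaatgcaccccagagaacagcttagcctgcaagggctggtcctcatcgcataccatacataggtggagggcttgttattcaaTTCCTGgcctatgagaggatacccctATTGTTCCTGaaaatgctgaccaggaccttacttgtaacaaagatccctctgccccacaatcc
The *Emcn* window holds 2 matches to CAGGAA and 1 to AACAAT, and so does the *Tek* window, in which one CAGGAA match and the AACAAT match share bases. The *Kdr* window holds 1 match to CCGGAA, and neither the *Cldn5* nor the *Flt1* window holds a match to these letters. Over the 250 bases before each of the 21 starts of the 16 genes, CAGGAA was present in 11, against 25.7% of all 32851 promoter windows. CCGGAA was in 1 (3952 of all windows), AACAAT in 4 (9.42%) and the GATA-type motif AGATAA in 2 (9.99%). A match is a run of letters and not a binding site, and *Emcn* and *Tek*, which carry the same matches, had unlike levels in the libraries, as given below.

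Cells of the SHF lineage held transcripts of the list that were at 0 in every CNC library, and none of the 38 genes was found in CNC libraries alone. Of the 38 genes, 36 were above 0 TPM in some library, all 36 in an SHF library and 24 in a CNC library. *Cdh5*, *Cldn5*, *Emcn*, *Podxl*, *Cyyr1*, *Vwf*, *Flt4*, *Tie1*, *Aplnr*, *Robo4*, *Sox17* and *Tal1*, 12 genes or 33.3% of the 36, were above 0 in SHF libraries alone, and 0 were above 0 in CNC libraries alone. Of all 14179 rows above 0 in some library, 8.39% were above 0 in SHF libraries alone and 7.62% in CNC libraries alone. For 11 of the 36 genes (30.6%) every SHF library was above every CNC library, against 4.79% of all rows above 0, and for 0 of them every CNC library was above every SHF library, against 4.37%. Over both directions 9.16% of all rows did not overlap. The 11 genes were *Cdh5*, *Emcn*, *Podxl*, *Vwf*, *Mmrn2*, *Flt4*, *Tie1*, *Ptprb*, *Ets1*, *Tal1* and *Vcam1*. The count was 8 when every SHF library also had to reach 1 TPM, which *Vwf*, *Tie1* and *Tal1* did not in SHF replicate 1. It was 15 without SHF replicate 1, where *Clec14a* was higher in every CNC library, and 12 without SHF replicate 3. With fewer SHF libraries non-overlap is easier to reach. The share over all rows was not computed for these settings, so the counts cannot be set against 4.79%. The mean was higher in SHF for 32 genes (88.9%, against 53.5% of all rows above 0) and in CNC for *Clec14a*, *Plvap*, *Eng* and *Acvrl1*. *Gpihbp1* and *Sox18* were listed at 0 in all 6 libraries.

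Of the 38 genes, SHF replicates 1, 2 and 3 held 29, 28 and 32 above 0, and CNC replicates 1, 2 and 3 held 18, 17 and 17. The lineages did not overlap in this number, although they did in the number of all genes above 0, which was 11858, 9255 and 10126 in the SHF replicates and 9653, 10698 and 11334 in the CNC replicates. SHF replicate 2 had the fewest genes above 0 of all libraries and 28 of the 38. The summed level was 1231, 1907 and 1399 TPM in the SHF replicates and 998, 620 and 711 TPM in the CNC replicates, without overlap, with means of 1512 ± 352 TPM (SD, n = 3) and 777 ± 197 TPM (SD, n = 3). The separation rested on *Vcam1*, a gene also made by smooth muscle and fibroblasts. Without it the sums were 841, 1743 and 1348 TPM in SHF and 950, 576 and 665 TPM in CNC, so that SHF replicate 1 lay below CNC replicate 1. The 9 genes above 0 in all 6 libraries, *Pecam1*, *Ptprb*, *Eng*, *Acvrl1*, *Calcrl*, *Ramp2*, *Fli1*, *Ets1* and *Vcam1*, outweighed the other 29 genes in every library except SHF replicate 3, where they summed to 691 TPM against 708 TPM. The 12 genes above 0 in SHF libraries alone summed to 25.4, 462 and 247 TPM in SHF replicates 1, 2 and 3, so that replicate 1 was far below the other two. They were chosen as listed at 0 in CNC, and their sums are compared within SHF only. In bulk libraries, fewer cells of a type and less RNA per cell cannot be told apart.

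**Figure D1:**
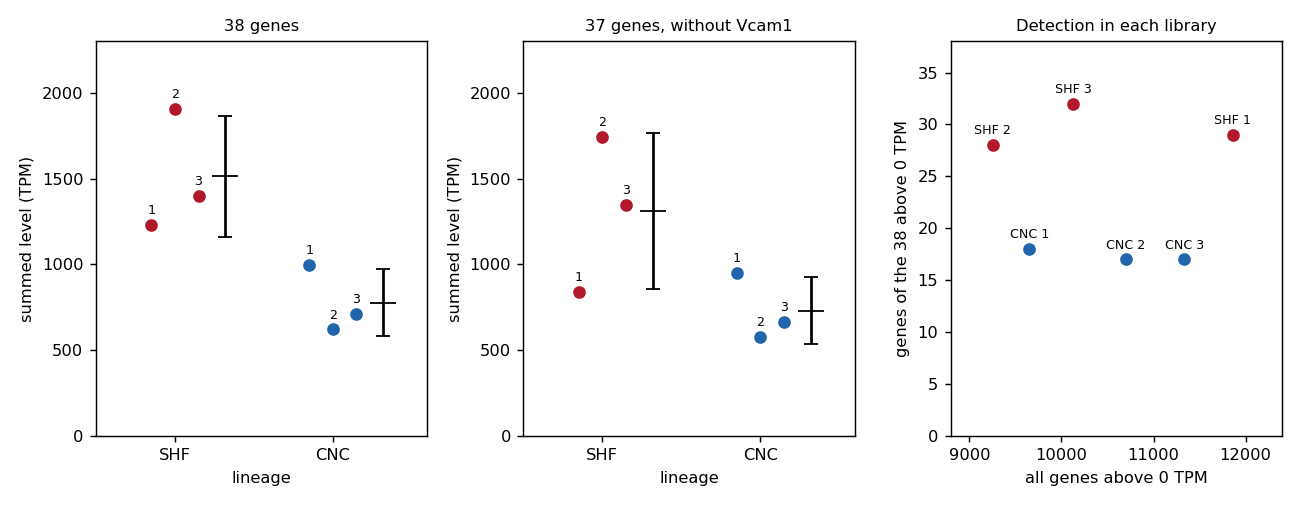
Summed TPM of all 38 genes (left) and of the 37 genes other than *Vcam1* (middle), one point per library with its replicate number, bars showing mean ± SD (n = 3), and, on the right, the number of the 38 genes above 0 TPM against the number of all genes above 0 in the same library. The SHF libraries hold 28 to 32 of the 38 genes and the CNC libraries 17 or 18, and the sums overlap between lineages once *Vcam1* is left out.

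The labelled cell type was checked against marker genes. The summed level of 10 smooth muscle genes (led by *Myl9*, *Acta2*, *Tagln* and *Myh11*) ran from 1404 to 3203 TPM over the 6 libraries, and that of 10 fibroblast genes (led by *Gsn*, *Dcn*, *Col3a1* and *Col1a1*) from 44050 to 70195 TPM, so fibroblast markers were the more abundant in every library. The fibroblast sum also moved with lineage, at 46992, 44050 and 62793 TPM in SHF and 70195, 64022 and 67084 TPM in CNC without overlap, 5 of its 10 genes being higher in every CNC library (4.37% of all rows above 0 were), and its part in the endothelial levels was not tested. Genes at 0 in single libraries were common among the 38, and the cause was not tested. A 0 is reported as listed and does not show absence. The female transcript *Xist* was above 0 in SHF replicates 2 and 3 alone (51.95 and 38.76 TPM), and the Y-linked *Ddx3y* was above 0 in SHF replicate 1 (61.27 TPM) and in the 3 CNC libraries (42.24 to 52.81 TPM), as was *Eif2s3y* (69.29 TPM and 23.09 to 110.88 TPM), so that sex and lineage partly coincide. Exons of 9 of the 38 genes overlap exons of another gene in GENCODE M21, and 5 of them, *Ecscr*, *Egfl7*, *Nos3*, *Eng* and *Ramp2*, those of a protein-coding gene, and reads over such exons cannot be assigned with certainty.

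**Figure D2:**
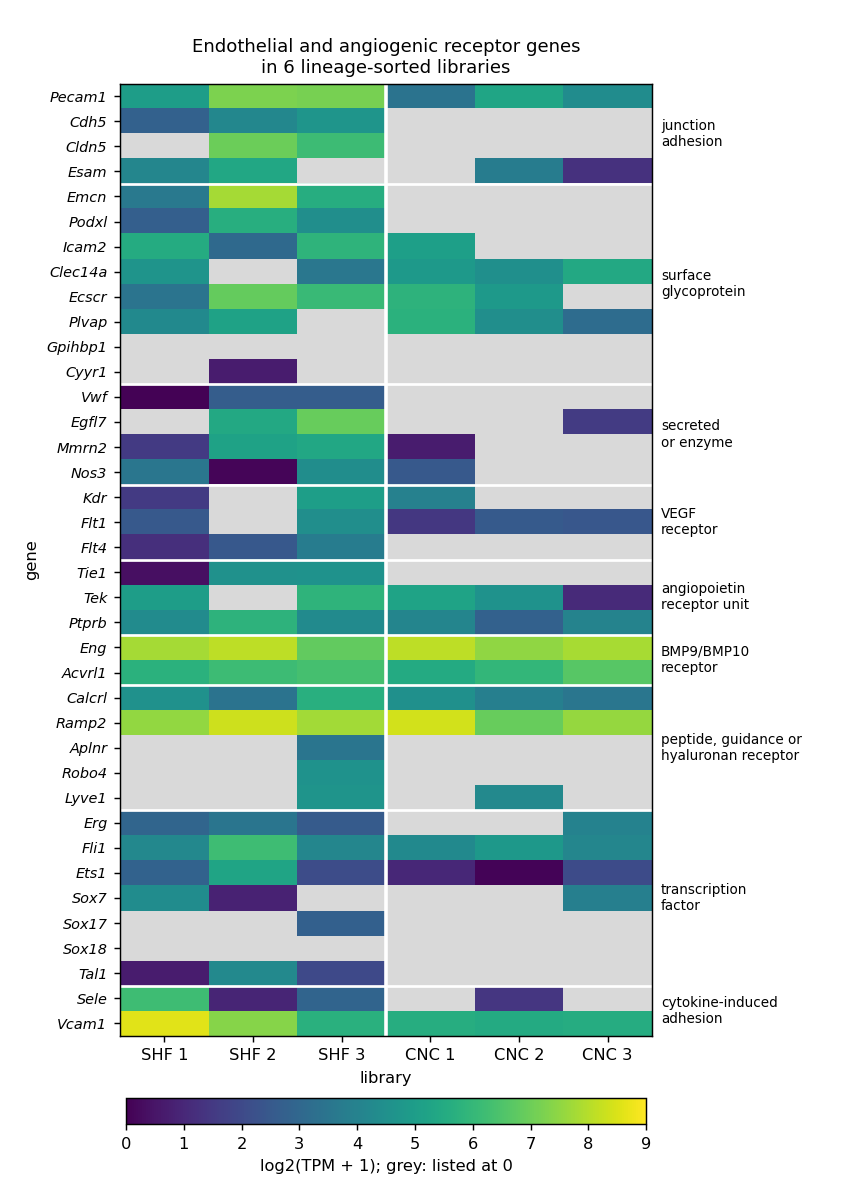
Level of each of the 38 genes, as log2(TPM + 1), in the 3 SHF and 3 CNC libraries, with genes in rows grouped by role and grey for values listed at 0. Grey fills all 3 CNC cells of *Cdh5*, *Cldn5*, *Emcn*, *Podxl*, *Flt4* and *Tie1*, while *Eng*, *Acvrl1* and *Ramp2* are filled in every library.

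Among the junction genes, VE-cadherin separated the lineages most cleanly. *Cdh5*, whose protein seals the adherens junctions of endothelium (chr8:104101625-104144511 in GENCODE M21 on GRCm38), was at 5.94 TPM in SHF replicate 1, 17.17 TPM in replicate 2 and 24.64 TPM in replicate 3, and it was listed at 0 in all CNC libraries. *Cldn5*, the claudin of endothelial tight junctions, on chromosome 16 from 18776847 to 18778262 as a single exon, was at 0, 126.15 and 70.87 TPM in SHF and 0 in all of CNC, so the SHF replicate lowest in *Cdh5* was level with CNC. *Pecam1*, an adhesion molecule shared by endothelium, platelets and leukocytes, was at 31.45, 147.51 and 141.59 TPM in SHF and 9.72, 37.86 and 19.81 TPM in CNC. Its mean was 4.76-fold higher in SHF (107 ± 65.4 against 22.5 ± 14.3 TPM, SD, n = 3), but SHF replicate 1 lay below CNC replicate 2. *Esam*, a junctional immunoglobulin-like protein of endothelium and platelets, overlapped between the lineages at 16.65, 41.33 and 0 TPM in SHF and 0, 12.65 and 1.41 TPM in CNC.

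The 2 sialomucins of the list were found in SHF libraries alone. *Emcn* (endomucin), an anti-adhesive mucin of venous and capillary endothelium, was at 11.59, 219.61 and 47.57 TPM, and *Podxl* (podocalyxin), a related anti-adhesive protein of endothelium and podocytes, at 5.59, 48.71 and 21.07 TPM. Both were highest in SHF replicate 2 and lowest in replicate 1, and both were listed at 0 in every CNC library. With *Cdh5* they are the 3 of the 38 genes that were exclusive to a lineage, taken here as more than 5 TPM in all of its libraries and 0 throughout the other. The study's methods give a threshold of 5 TPM for exclusive transcripts, and how it treated single libraries and the other lineage was read here in this strict way. That rule was met in SHF by 0.134% of all rows above 0 and in CNC by 0.106%, with 0 of the 38 genes exclusive to CNC.

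The other surface glycoproteins did not follow the sialomucins. *Clec14a*, a C-type lectin of sprouting endothelium, was at 23.97, 0 and 10.72 TPM in SHF and 27.88, 21.29 and 41.77 TPM in CNC. *Plvap*, which forms the diaphragms of fenestrae and caveolae, was at 18.34, 35.74 and 0 TPM in SHF and 52.96, 21.08 and 8.12 TPM in CNC. These are 2 of the 4 genes with the higher mean in CNC, and both overlapped. *Ecscr*, a regulator of endothelial chemotaxis, was at 9.91, 115.97 and 68.09 TPM in SHF and 55.26, 27.56 and 0 TPM in CNC. *Icam2*, an adhesion molecule constitutively present on endothelium, was above 0 in all SHF libraries (45.09, 7.51 and 56.37 TPM) and in CNC replicate 1 alone of its lineage (33.05 TPM). *Cyyr1* was at 0.59 TPM in SHF replicate 2 and 0 elsewhere. *Gpihbp1*, which carries lipoprotein lipase to the capillary lumen, was listed at 0 throughout. Transcripts of the endothelial surface were thus listed in CNC libraries too, at up to 55.26 TPM.

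Among the secreted proteins and the enzyme, the matrix protein *Mmrn2* (multimerin-2, a ligand of CLEC14A) was at 1.89, 35.12 and 41.02 TPM in SHF and 0.61, 0 and 0 TPM in CNC, with no overlap. *Egfl7*, a secreted factor of endothelial tube formation, was at 0, 42.55 and 117.92 TPM in SHF and 0, 0 and 1.98 TPM in CNC, and again SHF replicate 1 was level with CNC while replicates 2 and 3 stood apart. The exons of *Egfl7* overlap those of *Agpat2* on the opposite strand and of *Mir126a*, the vascular microRNA it hosts. *Vwf*, the platelet-binding glycoprotein stored in endothelial granules, was low in SHF, at 0.04, 5.34 and 5.34 TPM, and listed at 0 in CNC. *Nos3*, the endothelial nitric oxide synthase, was at 10.51, 0.09 and 20.06 TPM in SHF and 4.76, 0 and 0 TPM in CNC. Both, general markers of endothelium, were below *Pecam1* in every library.

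The 3 VEGF receptors were all low and differed in pattern. *Flt4* (VEGFR-3), the VEGF-C and VEGF-D receptor best known from lymphatic endothelium, was at 1.31, 4.54 and 12.72 TPM in SHF and 0 in CNC, without overlap. *Kdr* (VEGFR-2), the main signalling receptor for VEGF-A, was at 1.9, 0 and 32.17 TPM in SHF and 14.38, 0 and 0 TPM in CNC. *Flt1* (VEGFR-1), which binds VEGF-A tightly and signals weakly, was at 4.77, 0 and 21.01 TPM in SHF and 1.75, 4.88 and 4.45 TPM in CNC. For *Kdr* and *Flt1* the lineages overlapped and SHF replicate 2, the library highest in *Emcn*, was listed at 0. The ligands were present in both lineages. *Figf*, the older symbol of the VEGF-D gene, was at 85.98, 120.35 and 78.98 TPM in SHF and 43.1, 45.75 and 113.75 TPM in CNC. *Vegfc* was at 18.06, 89.73 and 25.61 TPM in SHF and 0, 0 and 22.87 TPM in CNC, and *Vegfa* was at most 15.54 TPM in any library. The co-receptor *Nrp1* was more abundant than the 3 receptors in every library, at 94.66 to 347.96 TPM, and overlapped between lineages.

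The orphan partner and the ligand-binding receptor of the angiopoietin system differed. *Tie1*, an orphan receptor that forms complexes with TIE2 (chr4:118471191-118490061), was at 0.3, 22.34 and 23.06 TPM in SHF and 0 in CNC. *Tek*, which encodes TIE2 itself, was at 31.58, 0 and 57.25 TPM in SHF and 36.71, 23.1 and 1.11 TPM in CNC, with means of 29.6 ± 28.7 and 20.3 ± 18 TPM (SD, n = 3) and full overlap. In SHF replicate 2 *Tie1* was therefore at 22.34 TPM while *Tek* was listed at 0, and in all 3 CNC libraries *Tek* was above 0 and *Tie1* listed at 0. *Ptprb* (VE-PTP), the phosphatase that restrains TIE2 and VE-cadherin signalling, was at 19.32, 55.13 and 18.73 TPM in SHF and 16.15, 5.96 and 15.19 TPM in CNC, without overlap but with a gap between the lineages smaller than the SD within either. Of the ligands, *Angpt4* was at 17.59, 23.97 and 22.69 TPM in SHF and 40.29, 78.36 and 73.74 TPM in CNC, so that every CNC library was higher. *Angpt1*, the main activating ligand, overlapped at 23.09, 0.78 and 33.89 TPM in SHF and 0, 17.55 and 11.26 TPM in CNC. The difference of *Angpt4* (log2 fold change -1.49, SE 0.64, adjusted p = 0.82 by limma) did not pass the test. Of the 20 genes on the list of ligands and co-receptors, which *Nrp1*, *Adm*, *Figf* and *Pgf* (15.87 to 119.72 TPM) led, 16 were above 0 somewhere, and 0 of 14 tested passed the adjusted threshold in limma while 2 had an unadjusted p under 0.05, against 5.86% of all genes tested. *Angpt4* was the one gene of this list whose lineages did not overlap, 1 of 16, against 9.16% of all rows above 0.

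**Figure D3:**
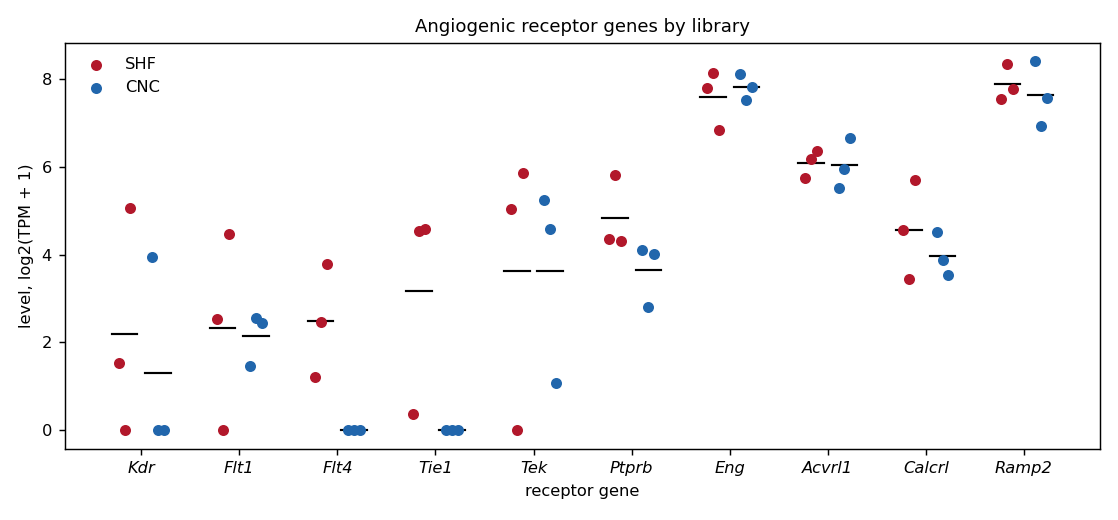
Level of 10 receptor and receptor-associated genes, as log2(TPM + 1), with one point per library and a line at the mean of the 3 log2 values of a lineage. *Flt4* and *Tie1* are at 0 in all 3 CNC libraries, *Tek* and *Flt1* are mixed, and *Eng*, *Acvrl1* and *Ramp2* lie at like levels in both lineages.

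The BMP9 and BMP10 receptor pair was found at like levels in both lineages. *Eng* (endoglin), the co-receptor, was at 218.98, 276.9 and 112.89 TPM in SHF and 275.15, 180.5 and 225.16 TPM in CNC. *Acvrl1* (ALK1), the type I receptor mutated with *ENG* in hereditary hemorrhagic telangiectasia, was at 52.51, 70.93 and 80.85 TPM in SHF and 44.76, 61.08 and 99.47 TPM in CNC. The log2 fold changes, SHF minus CNC, were -0.23 (SE 0.41) for *Eng* and 0.05 (SE 0.52) for *Acvrl1*, each smaller than its standard error, and both signs turned under other settings or with a library left out. Neither ligand gene, *Gdf2* (BMP9) or *Bmp10*, was above 0 in any library.

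The adrenomedullin receptor likewise overlapped between lineages. *Ramp2*, the subunit that gives the receptor its preference for adrenomedullin, had the highest mean over the 6 libraries of the 38 genes, at 240 ± 70.8 TPM in SHF and 215 ± 111 TPM in CNC (SD, n = 3), although *Eng*, the next in order, lay within this spread. *Calcrl*, which encodes the receptor proper, was lower at 27.6 ± 20.8 and 15.3 ± 5.77 TPM (SD, n = 3). The ligand gene *Adm* was at 59.47, 145.02 and 75.54 TPM in SHF and 35.56, 67.63 and 112.46 TPM in CNC. Receptor and ligand of this system were thus above 0 in all 6 libraries. The apelin receptor *Aplnr* (10.3 TPM) and the vascular guidance receptor *Robo4* (23.03 TPM) were above 0 in SHF replicate 3 alone, and *Apln* and *Apela*, the ligands of APLNR, were listed at 0 throughout.

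*Lyve1*, a hyaluronan receptor of lymphatic endothelium and of resident macrophages, was at 24.21 TPM in SHF replicate 3, at 17.75 TPM in CNC replicate 2 and 0 elsewhere. The 2 libraries differed in the markers beside it. In SHF replicate 3 *Mmrn1*, a lymphatic and platelet protein, was at 170.05 TPM, against 8.15 TPM in SHF replicate 1 and 0 in the other libraries, while the macrophage genes *C1qa*, *C1qb* and *Folr2* were listed at 0, but *Cd68* was at 26.9 TPM and the lymphatic *Ccl21a* at 0. In CNC replicate 2 *C1qb* was at 141.06, *C1qa* at 44.05 and *Folr2* at 23.75 TPM, and *Mmrn1* and *Cd68* were listed at 0, but *Ccl21a* was at 18.47 TPM. *Prox1*, the defining factor of lymphatic endothelium, was at 0.07 TPM in SHF replicate 3 and 0 elsewhere. Over the 17 leukocyte genes, led by *Cd74*, *C1qb*, *F13a1* and *Lyz2*, the sum was 296, 395 and 178 TPM in SHF and 93.6, 684 and 37.5 TPM in CNC, and the pan-leukocyte *Ptprc* (CD45) was listed at 0 in all 6 libraries.

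Of the 7 transcription factors, *Ets1* and *Tal1* had no overlap. *Ets1* was at 6.17, 37.55 and 3.27 TPM in SHF and 0.98, 0.07 and 3.18 TPM in CNC, so that SHF replicate 3 and CNC replicate 3 were almost level and overlapped once the libraries were rescaled by median-of-ratios factors. *Tal1*, a factor of blood and endothelial progenitors, was at 0.6, 17.79 and 3.01 TPM in SHF and 0 in CNC. *Erg*, the ETS factor closest to endothelial identity, was at 6.7, 10.36 and 5.06 TPM in SHF, and it was at 14.75 TPM in CNC replicate 3 and 0 in the other CNC libraries, so the highest value belonged to a library without *Cdh5*, *Cldn5* or *Tie1*. *Fli1* was at 16.32 to 72.56 TPM in SHF and 16.67 to 26.52 TPM in CNC. The SoxF genes were sparse. *Sox17*, the arterial member, was at 5.8 TPM in SHF replicate 3 alone, *Sox7* was at 19.59, 0.82 and 0 TPM in SHF and at 13.83 TPM in CNC replicate 3 alone of its lineage, and *Sox18* was at 0 throughout.

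The cytokine-induced adhesion molecules were highest in SHF replicate 1. *Vcam1*, which binds leukocyte integrins and is also made by smooth muscle and fibroblasts, was at 389.28, 164.51 and 51.41 TPM in SHF and at 47.59, 44.43 and 46.18 TPM in CNC libraries. Every SHF library was above every CNC library, by little in replicate 3. *Sele* (E-selectin), which activated endothelium displays to capture leukocytes, was at 72.76, 0.93 and 6.53 TPM in SHF and 0, 1.71 and 0 TPM in CNC. This replicate was lowest in *Cdh5*, *Emcn*, *Podxl*, *Tie1* and *Pecam1* among the SHF replicates.

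Over the 36 genes, the highest SHF value belonged to replicate 1 for 4 genes (11.1%), to replicate 2 for 16 (44.4%) and to replicate 3 for 16 (44.4%), with *Vwf*, equal in replicates 2 and 3, counted for replicate 2. Over all tested genes above 0 in SHF the shares were 32.6%, 35.6% and 31.8%. The sets are unlike here and for CNC below. Tested genes reached 1 TPM in 3 or more libraries, whereas the genes of the list include some that did not. The 4 genes highest in replicate 1 were *Clec14a*, *Sox7*, *Sele* and *Vcam1*. In CNC, where 24 of the genes were above 0, replicate 1 was highest for 12 (50.0%) and replicates 2 and 3 for 6 each, against 33.4%, 35.1% and 31.4% over all tested genes above 0 in CNC. SHF replicates 2 and 3 also differed from each other, *Emcn*, *Cldn5*, *Tal1* and *Ets1* being higher in replicate 2 and *Egfl7*, *Kdr*, *Tek*, *Flt1*, *Robo4* and *Aplnr* in replicate 3. SHF replicate 1 differed from the other 2 SHF replicates in further respects, with *Ddx3y* in place of *Xist* and with 380 TPM over 6 erythroid genes (led by *Hba-a1*, *Hbb-bt*, *Hba-a2* and *Alas2*) against 0 in each of the others. In CNC the erythroid sum was 48.7 TPM in replicate 2 and at most 0.6 TPM in the other libraries. Whether sex or blood cells have a part in the endothelial levels was not tested. The number of genes above 0 in SHF libraries alone was 12, 11 and 9 without SHF replicates 1, 2 and 3. It was 16, 14 and 15 without CNC replicates 1, 2 and 3, where fewer CNC libraries had to be at 0. The share over all rows was not computed for these runs.

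The lineages were compared gene by gene with limma on the log2(TPM + 1) scale, which understates the change of low genes, and 10185 genes reached 1 TPM in 3 or more libraries and were tested. Of the 38 genes, 26 met this filter, which a gene present in SHF alone passes only where it is high there, so counts among the 26 are a description. None had an adjusted p under 0.05 (limma, Benjamini-Hochberg over 10185 genes), and 0.0% of all genes tested did. The smallest adjusted p among the 26 was 0.475, for *Emcn*. Unadjusted p-values by limma were under 0.05 for 7 of them, all higher in SHF, namely *Emcn* (0.0016), *Podxl* (0.00434), *Cdh5* (0.00439), *Mmrn2* (0.0151), *Pecam1* (0.0216), *Flt4* (0.0233) and *Vcam1* (0.0281), and over all genes 5.86% were under 0.05 in either direction and 2.69% with SHF higher. The difference was above 0 for 22 of the 26 genes and below 0 for 4, and above 0 for 51.2% of all genes tested. The median log2 fold change was 1.68, or 1.34 over the 22 genes above 0 in some CNC library, against 0.02 over all genes tested. The filter shifts both medians of the list toward SHF, and they are a description of the genes that passed, since *Emcn*, *Cdh5*, *Podxl*, *Flt4* and, among the 22, *Mmrn2* reached 1 TPM in SHF libraries alone. The median was 0.87 without SHF replicate 1 and 0.80 without SHF replicate 3, but over 18 and 17 genes, since with 2 SHF libraries left the filter drops genes listed at 0 in CNC, *Emcn*, *Cdh5*, *Podxl* and *Flt4* among them. At 3 libraries per lineage the smallest p that exact permutation (two-sided) allows for one gene is 0.1.

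The standard errors were wide for genes with values of 0 and narrow for the abundant ones. *Mmrn2* had a log2 fold change of 3.80 (SE 1.32, adjusted p = 0.692 by limma), a gene that passed the filter through its SHF libraries alone, and *Egfl7* one of 3.59 (SE 1.72, adjusted p = 0.87). *Pecam1* had 2.10 (SE 0.79, adjusted p = 0.763) and *Vcam1* 1.67 (SE 0.66, adjusted p = 0.796). *Ramp2*, with 0.24 (SE 0.43), and *Eng* and *Acvrl1* differed by less than their standard errors, which were at most 0.52, whereas those of *Kdr* (0.88, SE 1.55) and *Tek* (SE 1.70) left room for changes of several-fold in either direction. The largest difference toward CNC was that of *Clec14a*, -2.19 (SE 1.31, adjusted p = 0.874).

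**Figure D4:**
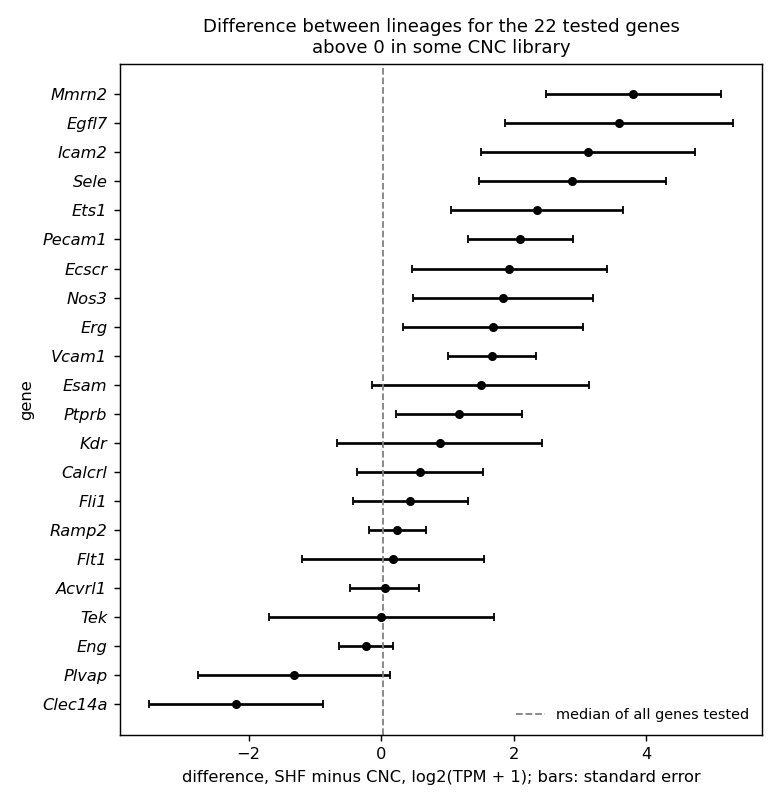
Difference in log2(TPM + 1), SHF minus CNC, with its standard error from limma (3 libraries per lineage), for the 22 tested genes above 0 in some CNC library, and the median of all genes tested as a dashed line. The points run from -2.19 for *Clec14a* to 3.80 for *Mmrn2*, and the narrow bars belong to *Eng*, *Ramp2* and *Acvrl1*.

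A further list of 34 endothelial genes outside the 38 gave a mixed picture. For 6 of the 31 above 0 somewhere every SHF library was above every CNC library and for 2 the reverse held, against 4.79% and 4.37% of all rows above 0, and 7 were above 0 in SHF libraries alone and 2 in CNC libraries alone, against 8.39% and 7.62% of all rows. The 6 were *Tspan7* (119.45, 304.06 and 109.01 TPM in SHF and 70.85, 50.67 and 61.33 TPM in CNC), *Mecom*, *Ctla2a*, *Apold1*, *Adgrl4* and *Gja5*. *Gja5*, the connexin-40 gene of arterial endothelium, was at 4.85, 3.44 and 20.77 TPM in SHF and *Apold1*, an endothelial stress-response gene, at 3.33, 28.24 and 25.56 TPM, and both were listed at 0 in CNC. *Ly6c1* (476.49, 316.21 and 332.14 TPM in SHF and 643.19, 1488.39 and 928.05 TPM in CNC) and the water channel *Aqp1* were higher in every CNC library. The summed level of the list was 3238 ± 209 TPM in SHF and 3566 ± 433 TPM in CNC (SD, n = 3) and overlapped. It was led by *Cd34*, *Ly6c1*, *Tm4sf1* and *Thbd*, of which *Cd34* and *Ly6c1* are also made by adventitial fibroblasts. None of the 21 tested genes of the list passed the adjusted threshold in limma. An unadjusted p under 0.05 was found for 5, against 5.86% of all genes tested. Of these *Ly6c1* was higher in CNC and *Tspan7*, *Mecom*, *Apold1* and *Gja5* in SHF. *Apold1* and *Gja5* passed the test filter through their SHF libraries alone, so this count is only a description.

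Markers of the other cells that the sort could hold varied between libraries, and the cardiomyocyte sum, like the fibroblast sum, did not overlap between lineages. Of the 4 genes listed as endocardial, *Tmem100*, *Cdh11* and *Nfatc1* were above 0 in all 6 libraries, and *Npr3*, the defining one, was at most 0.2 TPM. Their sum was 144 to 205 TPM in SHF and 169 to 291 TPM in CNC. It was led by *Tmem100* and *Cdh11* and is not taken as a measure of endocardial cells. The 5 lymphatic genes, led by *Pdpn*, *Mmrn1*, *Ccl21a* and *Reln*, summed to 57.5, 65.7 and 288 TPM in SHF and 102, 62.8 and 11.3 TPM in CNC. The 6 mural genes, led by *Rgs5*, *Pdgfrb*, *Abcc9* and *Kcnj8*, summed to 275 to 626 TPM in SHF and 532 to 687 TPM in CNC. Of the 6 platelet genes, *Pf4*, *Gp1bb* and *Itga2b* were above 0 somewhere, with sums of at most 1.5 TPM in SHF libraries and 1.02 to 23.4 TPM in CNC libraries. Of the cardiomyocyte list, *Myl2* and *Myl7* were listed at 0 throughout. Its 10 genes, led by *Tnnt2*, *Actc1*, *Myl4* and *Myh6*, summed to 107, 99.2 and 135 TPM in SHF and 63.9, 8.57 and 5.81 TPM in CNC without overlap. Taken singly, each of the 10 genes overlapped between the lineages. In SHF replicate 2 *Tnnt2* gave 87.44 of the 99.2 TPM, and *Actc1* and *Myh6* were listed at 0, so the separation of the sum rested on *Tnnt2*. The part of these cells in the endothelial levels was not tested. Of the 4 mesothelial genes, *Upk3b* and *Krt19* were at 31.6 and 26.4 TPM in SHF replicate 3, the library in which *Robo4*, *Aplnr* and *Sox17* were found, against at most 10.66 TPM in any other library, and *Lrrn4* and *Msln* were listed at 0.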

How the data were processed

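Bulk RNA sequencing libraries of sorted SHF and CNC cells (3 each) were analysed. Per the labels and the study's methods, the authors aligned reads with bowtie2, estimated gene levels with RSEM 1.2.25 on mm10 and deposited TPM values. The gene annotation is not given in the sources used here. Columns were matched to libraries by library code. TPM keeps no depth, so no counting interval was computed. Where nothing says that libraries came from separate mice, p-values measure the spread between these libraries.

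Levels were compared in R 4.3.3 with limma 3.58.1 (lmFit, eBayes with a trend, two-sided) on log2(TPM + 1). Genes were tested if 3 or more libraries reached 1 TPM, differences are SHF minus CNC, and p-values were adjusted by Benjamini-Hochberg (threshold 0.05). The fit was tested on simulated data. Non-overlap means that the lowest library of one lineage exceeded the highest of the other. The members, lists and tests were chosen with earlier results of these data known. All 38 genes are named, with the 4 most abundant genes of each marker list, the ligand and further endothelial genes without overlap, and sex-linked genes. *Vegfc*, *Vegfa*, *Angpt1*, *Apln*, *Apela*, *Gdf2*, *Bmp10*, *C1qa*, *Folr2*, *Cd68*, *Prox1*, *Ptprc*, *Myl2* and *Myl7* were added after their values were seen, as known ligands or defining markers. Positions are from GENCODE M21 (GRCm38, the build called mm10) and promoter sequences from RefSeq on GRCm38.p6. The shared replicate numbers did not pair the libraries. Other pseudocounts, filters, scalings, weights, a replicate block and each library left out were tried. Plots used Python 3.11.15 and matplotlib 3.10.9. The single-cell data were not analysed here, and 1 marker list is not reported here.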

Additional observations from a re-analysis of the deposited data

How the results depend on the processing

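None of the genes of the 38 that could be tested, 17 to 36 of them by setting, passed the adjusted threshold under any alternative run, and *Emcn*, *Cdh5*, *Podxl* and *Flt4* were not tested where an SHF library was left out. Over all genes the count was 0 except with a pseudocount of 5, where it was 1. The median log2 fold change of the tested genes was 1.02 to 1.99 with other pseudocounts and 0.80 to 1.52 with any one library left out, where the set of genes tested changes too. The 3 exclusive genes became 1 with a threshold of 10 TPM (*Emcn*). They became 6 when the lineage mean had to exceed 5 TPM and each of its libraries only 0. With a library left out they were 3 to 6, the 6 coming without SHF replicate 1. The number of genes above 0 in CNC libraries alone was 0 to 1 when a library was left out, the 1 being *Lyve1* without SHF replicate 3. Of 362 values of single genes under alternatives, 344 kept their direction and 18 reversed, in 7 genes. *Flt1* was at -0.68 with a pseudocount of 0.1 and ran from -0.89 to 1.34 with a library left out. *Tek* was at 0.22 with a pseudocount of 5, 0.35 with quantile normalization and 1.39 with library weights, and ran from -1.28 to 1.81. *Acvrl1* was at -0.03 with median-of-ratios rescaling, -0.02 with quantile normalization and -0.20 with library weights, and ran from -0.21 to 0.35. With a library left out, *Plvap* ran from -2.33 to 0.27, *Eng* from -0.51 to 0.14, *Ramp2* from -0.11 to 0.63 and *Fli1* from -0.24 to 0.80. The cause was not tested. Libraries that share a replicate number did not deviate together (correlations -0.011, -0.004 and -0.011 for numbers 1, 2 and 3), so a number is only a name, and with a replicate block the count was 0 and the median 1.68. The counts of genes above 0 in one lineage alone, the count of higher means and the sum without *Vcam1* were added after seeing the data. Unknown depth limits what the values of 0 can say.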
